A study of Homo sapiens with 2 samples.

Results

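The integrin and laminin subunits of H1944 cells were examined with and without knockdown of USP12. The members were the rows of the deposited count tables whose gene name was ITGA or ITGB followed by digits or a single letter, or LAMA, LAMB or LAMC followed by a digit, with pseudogenes, antisense RNAs and binding proteins left out. Of 59125 rows with a count, 37 met this rule, of which 25 were integrin subunits and 12 were laminin chains. The integrin subunits comprised 17 α and 8 β subunits. ITGA2B, the α subunit of the platelet fibrinogen receptor, has digits and a letter in its name and was not taken in by the rule. It had 18 counts in shCON and 9 in shUSP12.

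H1944 is an established human lung adenocarcinoma cell line. USP12 encodes a deubiquitinase, an enzyme that takes ubiquitin off other proteins. The study sequenced mRNA of H1944 cells given a control short hairpin RNA (shCON) and of H1944 cells given a hairpin against USP12 (shUSP12), to find the transcripts that differ when USP12 is depleted. Each condition had 1 library, so no difference has a replicate check and every value compares these 2 libraries. The labels give no further treatment and do not say which hairpin sequences were used or whether the cells were a pool or a clone. The count columns named the control hairpin SHRFP and the other SHU12.4.

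Integrins are receptors made of an α and a β subunit that join the extracellular matrix to the actin or keratin cytoskeleton. The α subunit largely sets the ligand, so the receptors are grouped as collagen, laminin, RGD and leukocyte receptors, RGD being the amino acid motif that fibronectin and vitronectin present. Laminins are heterotrimers of an α, a β and a γ chain, and they form the sheet of the basement membrane on which epithelial cells, including those of the lung, rest.

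Sequencing depth came to 18249112 counts for shCON and 17475359 for shUSP12. Levels were given as CPM, counts scaled to 1000000 per library and then by the trimmed mean of M values (TMM). Ratios are log2 of shUSP12 over shCON after adding 0.1 CPM to each value, with 95% exact Clopper-Pearson intervals that cover counting error only and have no pseudocount. USP12 itself had 711 counts in shCON and 219 in shUSP12, for a log2 ratio of -1.76 (95% interval -1.99 to -1.55), in the direction of the labels. Of 9 markers written down for a lung adenocarcinoma line, 7 averaged 1 CPM or more. KRT8, a keratin of simple epithelia, had 85596 counts in shCON and 62180 in shUSP12, but SFTPB, a surfactant protein, was at 0 in both. The libraries also stood apart in other epithelial markers. KRT19, another keratin, had 32 counts in shCON and 4452 in shUSP12, and EPCAM, an epithelial adhesion molecule, had 115 and 1566. NKX2-1, the lung lineage transcription factor, had 0 and 312 counts, so it was among the 7 only through shUSP12. There were 119 rows with 50 or more counts in shUSP12 against 3 or fewer in shCON, and 1 row with the reverse. No subunit was among them. The part of all these differences in the values that follow was not tested.

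Of the 37 subunits, 29 averaged 1 CPM or more across the libraries, namely 19 integrin subunits and 10 laminin chains. The 4 highest ratios all belonged to α subunits of collagen or laminin receptors. The 3 members at least 2-fold higher in shUSP12 were ITGA1, ITGA10 and ITGA6, whereas 6.48% of all 14612 rows with such a mean were at least 2-fold higher. The 2 members at least 2-fold lower were the laminin chains LAMA1 and LAMC3, against 3.01% of all rows. ITGA10, at 0.63 CPM in shCON and 1.80 CPM in shUSP12, reached the mean of 1 CPM only through shUSP12. LAMA1, at 1.84 and 0.77 CPM, reached it only through shCON. Their places in these tallies thus depend on the library where they were high. The interval lay wholly above 0 for 9 of the 29, where it did so for 27.1% of all rows, and wholly below 0 for 12, where it did so for 29.1%. An abundant gene has a narrower interval, which leaves out 0 more readily. The median log2 ratio was -0.07 for the integrin subunits and -0.07 for the laminin chains, beside -0.01 for all rows. Integrin subunits spread from -0.74 to 2.06 and laminin chains from -1.17 to 0.14.

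**Figure D1:**
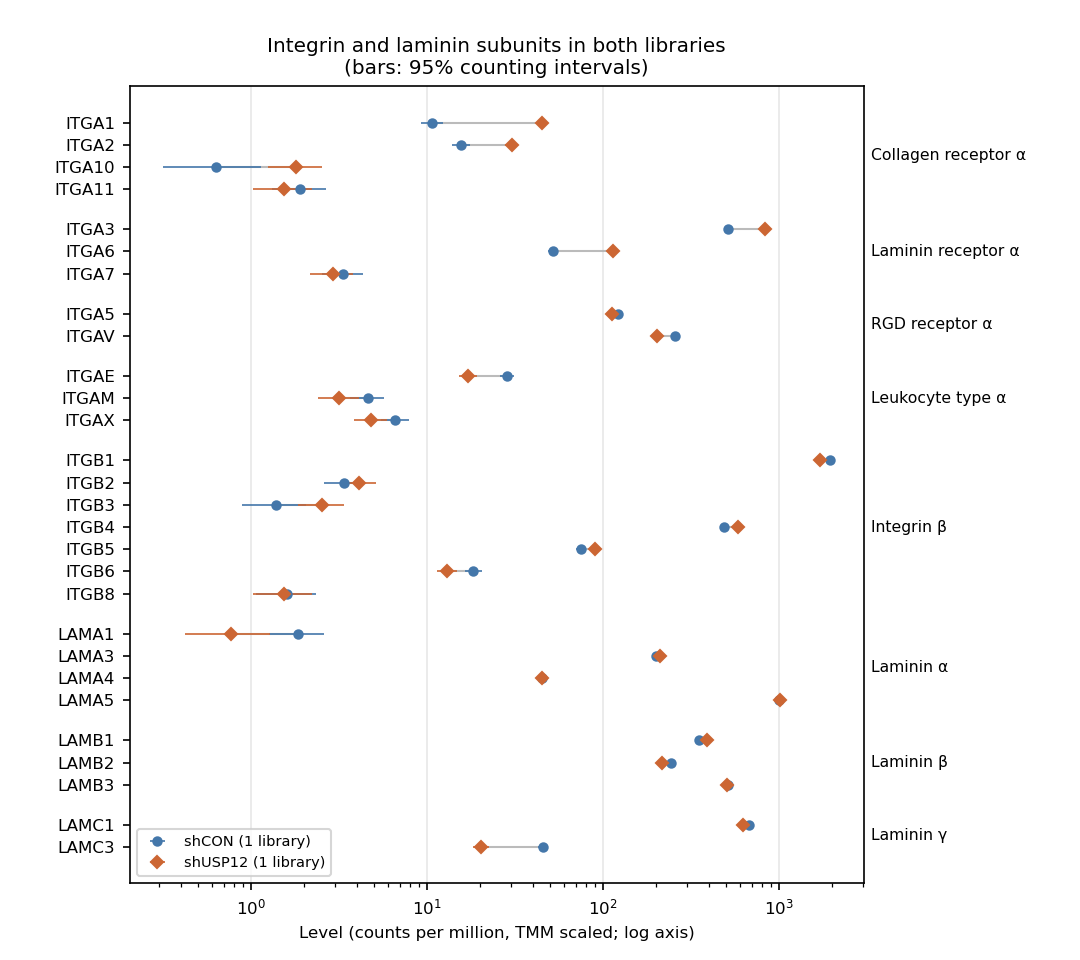
Level of 28 subunits that averaged 1 CPM or more, in TMM-scaled CPM on a log axis. Circles stand for the shCON library, diamonds for the shUSP12 library and bars for 95% counting intervals, and levels are to be compared within a gene since they are not per length. The widest gap is that of ITGA1, from 10.7 CPM in shCON to 44.7 CPM in shUSP12.

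The collagen receptor α subunits ITGA1, ITGA2, ITGA10 and ITGA11 all pair with ITGB1. ITGA1 and ITGA2 are neighbours on chromosome 5 in the same orientation, 30.1 kb apart. The stretches before the annotated start of these 4 genes are printed because the subunits share a class of ligand and differed in their ratios. They come from the RefSeq promoter table (GRCh38.p14) and hold up to 250 bases upstream of the start, less any base inside the gene of GENCODE release 44. They are written from 5′ to 3′ on the strand of the gene, and capitals mark the GC box GGGCGG on either strand, the letters bound by Sp1. ITGA1 is chr5:52787666-52787915 on the plus strand, ITGA2 is chr5:52989102-52989339 on the plus strand, ITGA10 is chr1:145910112-145910300 on the minus strand and ITGA11 is chr15:68432164-68432413 on the minus strand.
ITGA1: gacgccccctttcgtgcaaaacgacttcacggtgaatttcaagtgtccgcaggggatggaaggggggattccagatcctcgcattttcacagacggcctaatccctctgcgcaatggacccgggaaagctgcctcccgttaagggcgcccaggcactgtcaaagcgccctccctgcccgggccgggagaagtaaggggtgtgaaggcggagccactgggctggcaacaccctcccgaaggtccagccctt
ITGA2: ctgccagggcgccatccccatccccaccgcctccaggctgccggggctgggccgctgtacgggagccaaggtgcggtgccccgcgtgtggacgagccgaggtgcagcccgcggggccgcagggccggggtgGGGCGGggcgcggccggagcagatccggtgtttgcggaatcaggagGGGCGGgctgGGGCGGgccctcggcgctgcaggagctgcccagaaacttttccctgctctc
ITGA10: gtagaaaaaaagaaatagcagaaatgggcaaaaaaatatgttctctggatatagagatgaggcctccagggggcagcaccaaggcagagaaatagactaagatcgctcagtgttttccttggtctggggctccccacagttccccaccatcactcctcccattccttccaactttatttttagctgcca
ITGA11: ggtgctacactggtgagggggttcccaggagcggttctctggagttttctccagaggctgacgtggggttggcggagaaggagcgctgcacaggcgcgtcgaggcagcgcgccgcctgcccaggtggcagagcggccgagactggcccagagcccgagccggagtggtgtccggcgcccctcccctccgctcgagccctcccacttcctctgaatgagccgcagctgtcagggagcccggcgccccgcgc

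In the printed stretches, ITGA2 had 3 GC boxes and the other 3 genes had none. Of all 27305 promoters in the table, 43.7% held a GC box in the 250 bases before the start, as did 14 of the 25 members with a promoter there. The AP-1 motif TGANTCA was in 1 of the 25, LAMA3, and in 6.49% of all promoters. The LAMA3 window lies inside the annotated gene, 183567 bases from the start of its representative (MANE Select) transcript. The windows of ITGB1, ITGB5 and LAMA4 also lie wholly inside their annotated genes. The NF-κB motif, searched in only 1 form, was in 0 of the 25 and in 0.557% of all. Looser forms of the NF-κB motif were not searched, so whether these promoters hold such letters was not tested. The TATA box TATAAA was in 0 of the 25 and in 11.1% of all. The STAT motif TTCNNNGAA was in 2 of the 25 and in 6.68% of all, and the interferon-stimulated response element (ISRE) was in 0 and 3.07%. All motifs were searched on both strands. A match is a description of the letters and not a bound site.

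ITGA1 (ENSG00000213949; chromosome 5, 52787916 to 52959209), the α subunit of a receptor for collagen IV, had 186 counts in shCON (10.7 CPM, 95% interval 9.19 to 12.3). It had 818 counts in shUSP12 (44.7 CPM, 95% interval 41.7 to 47.9), for a log2 ratio of 2.06 (95% interval 1.84 to 2.30) or 4.19-fold. The intervals of the libraries lay apart, and ITGA1 had the highest ratio of the 29 subunits. PELO, a ribosome rescue factor on the same strand, has the same annotated start as ITGA1 and lies inside its locus. PELO shares 499 bases with the exons of ITGA1, which is 2.69% of their length, and had 1085 counts in shCON and 1205 in shUSP12. Its log2 ratio was 0.08 (95% interval -0.04 to 0.20), so the row that overlaps ITGA1 did not share its difference.

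ITGA2 (ENSG00000164171; chromosome 5, 52989340 to 53094779), the α subunit of a receptor for fibrillar collagens, had 271 counts in shCON and 551 in shUSP12, or 15.5 and 30.1 CPM. Its log2 ratio of 0.95 (95% interval 0.74 to 1.17) lay just under 2-fold, which was within the interval. With scaling to total counts alone ITGA2 passed the 2-fold threshold. ITGA10 (ENSG00000143127; chromosome 1, 145891208 to 145910111), a collagen receptor α subunit known from cartilage, had 11 and 33 counts, a log2 ratio of 1.38 (95% interval 0.49 to 2.65). ITGA11 (ENSG00000137809), known from fibroblasts, had 33 and 28 counts, and its interval from -1.09 to 0.46 held 0. Thus 3 of the 4 collagen receptor α subunits had an interval above 0, beside 27.1% of all rows, at very different depths of counts. ITGA10 among these reached the mean of 1 CPM only through shUSP12, so its place here depends on the library where it was high.

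Of the laminin receptor α subunits, ITGA3 and ITGA6 had many more counts than ITGA7. ITGA3 (ENSG00000005884; chromosome 17, 50055968 to 50090481), which with ITGB1 binds laminin-511, had 8895 counts in shCON and 15260 in shUSP12. Its level was 510 CPM (95% interval 499.8 to 521) and 834 CPM (95% interval 821 to 847), for a log2 ratio of 0.71 (95% interval 0.67 to 0.75) or 1.63-fold. ITGA6 (ENSG00000091409; chromosome 2, 172427354 to 172506459), which pairs with ITGB1 or with ITGB4, had 904 counts in shCON and 2078 in shUSP12. These are 51.9 CPM (95% interval 48.5 to 55.4) and 114 CPM (95% interval 109 to 119), for a log2 ratio of 1.13 (95% interval 1.02 to 1.25). ITGA7, the laminin receptor α subunit of muscle, had 58 and 53 counts, and its interval from -0.77 to 0.36 held 0. The laminin receptor α subunits of epithelium were therefore both higher in shUSP12, and that of muscle could not be told apart between the libraries at this depth.

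Among the RGD receptor α subunits, ITGAV lay on the other side. ITGAV (ENSG00000138448), which pairs with several β subunits to bind vitronectin, fibronectin and latent TGF-β, had 4437 counts in shCON and 3691 in shUSP12, or 255 and 202 CPM. Its log2 ratio was -0.34 (95% interval -0.40 to -0.27), and it stayed below 0 with scaling to total counts alone, at -0.20. ITGA5 (ENSG00000161638), the fibronectin receptor α subunit, had 2116 and 2063 counts and a log2 ratio of -0.11 (95% interval -0.19 to -0.02), which turned to 0.026 with scaling to total counts alone. ITGA8, another RGD receptor subunit, had 12 and 2 counts, and ITGA4 and ITGA9, receptors for VCAM1 and tenascin, had 15 and 6 and 4 and 1. The direction of ITGA5 therefore depended on the scaling, and that of ITGAV did not.

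Integrin subunits best known from leukocytes had few counts, apart from ITGAE. ITGAE (ENSG00000083457; chromosome 17, 3714628 to 3801188), which with ITGB7 binds E-cadherin, had 496 counts in shCON and 312 in shUSP12, or 28.5 and 17.1 CPM. Its log2 ratio was -0.74 (95% interval -0.95 to -0.53). The exons of ITGAE overlap those of HASPIN, a histone kinase gene on the opposite strand, over 427 bases, and HASPIN had 287 and 188 counts, a log2 ratio of -0.68. The library kit keeps the strand, but whether the counting used it is not given in the sources used here. ITGAM had 80 and 58 counts and ITGAX had 115 and 88, with log2 ratios of -0.52 (95% interval -1.05 to -0.03) and -0.45 (95% interval -0.87 to -0.04). With scaling to total counts alone both intervals held 0. Their partner ITGB2 had 59 and 75 counts, with an interval from -0.24 to 0.79. ITGAL was at 0 in both libraries, which at a floor of 3 counts allows up to 0.164 CPM for shCON and up to 0.172 CPM for shUSP12 before TMM scaling, and ITGAD had 9 and 6 counts. The leukocyte markers were at or near 0. Of 9, 7 had no more than 3 counts in either library, and all 9 summed to 1.20 CPM in shCON and 2.40 CPM in shUSP12. PTPRC, the pan-leukocyte antigen CD45, had 0 and 2 counts, while CD14 had the most, with 21 and 31.

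Among the β subunits the differences were smaller. ITGB1 (ENSG00000150093), the common partner of 12 α subunits among the members, had 33782 counts in shCON and 31092 in shUSP12, or 1938 and 1699 CPM. Its log2 ratio was -0.19 (95% interval -0.21 to -0.17) and was -0.06 with scaling to total counts alone. ITGB4 (ENSG00000132470), the hemidesmosomal partner of ITGA6, had 8510 and 10626 counts, or 488 and 581 CPM, a log2 ratio of 0.25 (95% interval 0.21 to 0.29). Thus ITGB4 was higher in shUSP12 together with ITGA6, while ITGB1 was lower, and neither differed by 1.5-fold.

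The other β subunits are mainly partners of ITGAV. ITGB5 had 1296 counts in shCON and 1637 in shUSP12, for a log2 ratio of 0.27 (95% interval 0.16 to 0.37). ITGB6, an epithelial subunit whose receptor releases active TGF-β, had 319 and 237, a log2 ratio of -0.50 (95% interval -0.75 to -0.25). The exons of ITGB6 overlap a non-coding row on the same strand over 966 bases, 16.7% of their length. That row had 90 counts in shCON and 37 in shUSP12, a log2 ratio of -1.31, and its part in the ITGB6 value was not tested. ITGB3 (ENSG00000259207; chromosome 17, 47253827 to 47313743), the vitronectin receptor β subunit, had 24 and 46 counts, a log2 ratio of 0.82 (95% interval 0.13 to 1.65). ITGB8 had 28 counts in both. ITGB7 had 2 and 17 counts, with a mean below 1 CPM and an 8.10-fold ratio whose 95% interval ran from 1.92 to 72.3. Of the 8 β subunits, 3 thus had an interval above 0, 2 below 0 and 2 across 0, and ITGB7 was below the filter. Of all rows, 27.1% had an interval above 0 and 29.1% below 0.

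**Figure D2:**
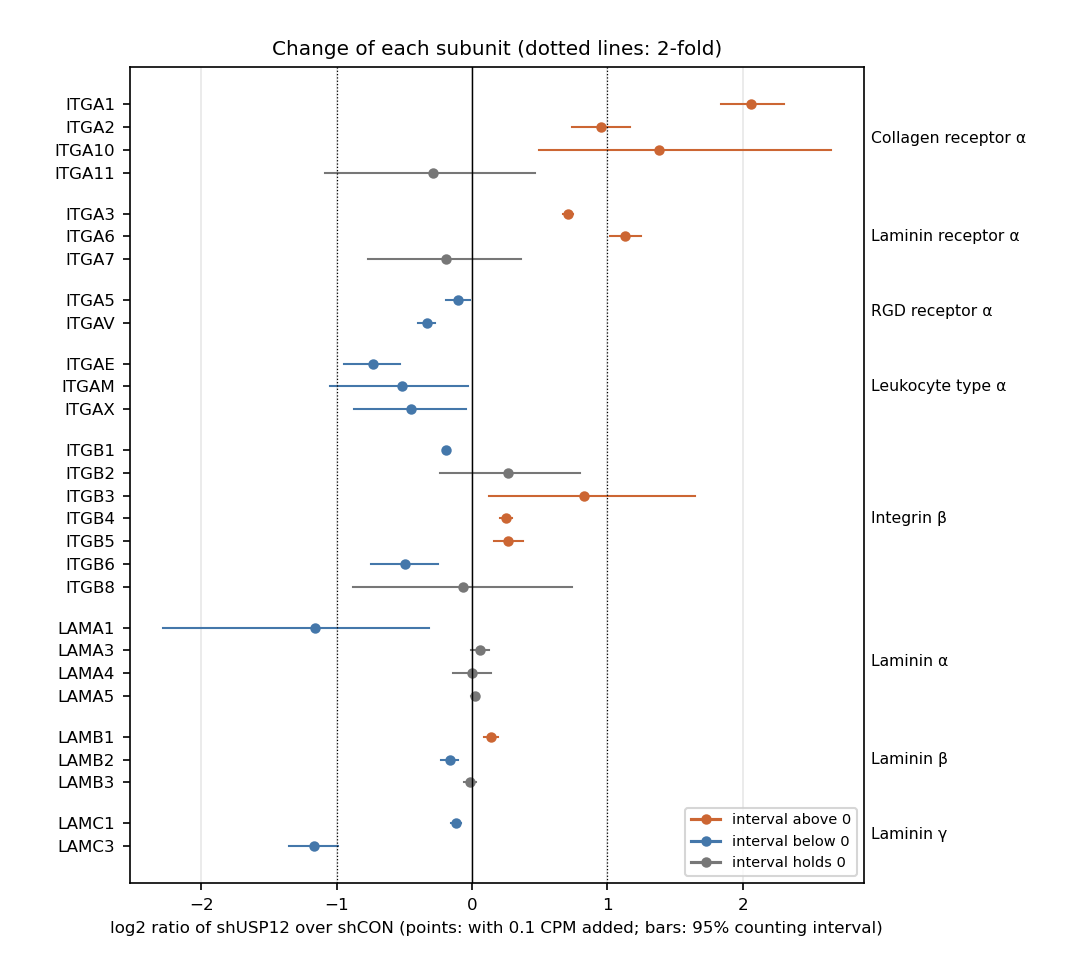
Log2 ratio of shUSP12 over shCON for 28 subunits (horizontal axis), grouped by role. Points are ratios with 0.1 CPM added, bars are 95% counting intervals coloured by the side of 0 they lie on, and dotted lines mark 2-fold. The collagen and laminin receptor α subunits reach from -0.29 for ITGA11 to 2.06 for ITGA1, while most laminin chains sit close to 0.

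Most laminin chains with many counts were nearly level between the libraries, apart from LAMC3. LAMA5 (ENSG00000130702), the α chain of laminin-511 and laminin-521, had 17451 counts in shCON and 18570 in shUSP12, for a log2 ratio of 0.02 (95% interval -0.01 to 0.05). LAMA3, the α chain of epithelial laminins, had 3490 and 3824, and LAMA4, the α chain of vascular and other mesenchymal laminins, had 787 and 826. Their intervals, like that of LAMA5, held 0. With scaling to total counts alone those of LAMA3 and LAMA5 lay above 0, at log2 ratios of 0.19 and 0.15. With the size factors of DESeq2, another scaling, both also lay above 0, at 0.085 and 0.043. LAMA1 (ENSG00000101680; chromosome 18, 6941742 to 7117797), the α chain of the embryonic laminin-111, had 32 and 14 counts, a log2 ratio of -1.16 (95% interval -2.28 to -0.32). LAMA2, the α chain of muscle laminin, had 5 and 24 counts and a mean below 1 CPM, with a 4.57-fold ratio whose 95% interval ran from 1.71 to 15.3. The α chains carrying nearly all of the α-chain counts thus differed little, and the 2 that differed had few counts.

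The β and γ chains of the abundant trimers also stayed within a narrow band. LAMB3 (ENSG00000196878), an epithelial β chain, had 8881 and 9223 counts and an interval from -0.06 to 0.03, which lay above 0 with scaling to total counts alone. LAMB1 had 6115 and 7068 counts, a log2 ratio of 0.14 (95% interval 0.09 to 0.19), and LAMB2 had 4234 and 3968, a log2 ratio of -0.16 (95% interval -0.23 to -0.10) whose interval held 0 with scaling to total counts alone. LAMC1, the γ chain of most laminins, had 11806 and 11397 counts, a log2 ratio of -0.12 (95% interval -0.16 to -0.08) that turned to 0.012 with scaling to total counts alone. LAMB4, a β chain with no trimer listed here, had 1 and 7 counts.

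LAMC3 (ENSG00000050555; chromosome 9, 131009174 to 131094473), the γ chain of minor laminins of brain and other tissues, was the exception among the chains with many counts. It had 793 counts in shCON and 370 in shUSP12, or 45.5 CPM (95% interval 42.4 to 48.8) and 20.2 CPM (95% interval 18.2 to 22.4). Its log2 ratio was -1.17 (95% interval -1.35 to -0.99), so that shUSP12 held 44.4% of the shCON level.

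To compare subunits with each other, levels were divided by the length of the gene's exons, in CPM per kilobase (kb). Among the highest in shCON were ITGB1 at 133 CPM per kb, LAMB3 at 110, LAMC1 at 80.2, ITGB4 at 72.2, LAMA5 at 70.1 and ITGA3 at 52.1. ITGB4 and LAMA5 had overlapping 95% intervals in shCON, 70.7 to 73.8 and 69.0 to 71.1 CPM per kb. In shUSP12 ITGB1 still led at 117 CPM per kb, and ITGA3 was at 85.1 beside ITGB4 at 85.9, LAMC1 at 73.8 and LAMA5 at 71.0. The exons of ITGB1 add up to 14561 bases over all its transcripts but to 3735 in its MANE Select transcript, the representative chosen by RefSeq and Ensembl, so the scale depends on the transcript assumed. Per MANE length, chosen after the data were seen, ITGB1 was at 519 CPM per kb in shCON, and ITGA3, at 104, already lay above ITGB4 at 82.8, LAMC1 at 85.4 and LAMA5 at 87.6.

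All receptors that share ITGB1 draw on the same β subunit, so the levels per kb of its 12 possible α partners were added up. The sum was 92.8 CPM per kb in shCON and 135 in shUSP12, and ITGB1 came to 1.43 times the sum in shCON and 0.866 times in shUSP12. Per MANE length the same figures were 2.85 and 1.79, so the ratio was lower in shUSP12 under both lengths, while whether ITGB1 exceeded its partners depended on the length. ITGA3 made up 56.1% of the sum in shCON and 63.1% in shUSP12, ITGA6 made up 8.37% and 12.6%, and ITGA1 made up 0.620% and 1.79%. The shares of the RGD receptors were lower in shUSP12, with ITGA5 at 17.7% and 11.3% and ITGAV at 14.2% and 7.74%. The level of ITGA5 itself differed little, at 16.4 and 15.3 CPM per kb, while the sum was higher in shUSP12. Per MANE length ITGA5 was at 15.7% and 10.4%, ITGAV at 19.8% and 11.3% and ITGA6 at 4.89% and 7.67%. The directions were thus the same, but the order of ITGA5 and ITGAV depended on the length. ITGAV is also shared with 4 other β subunits and ITGA6 with ITGB4, so these are shares of transcripts and not of receptors.

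**Figure D3:**
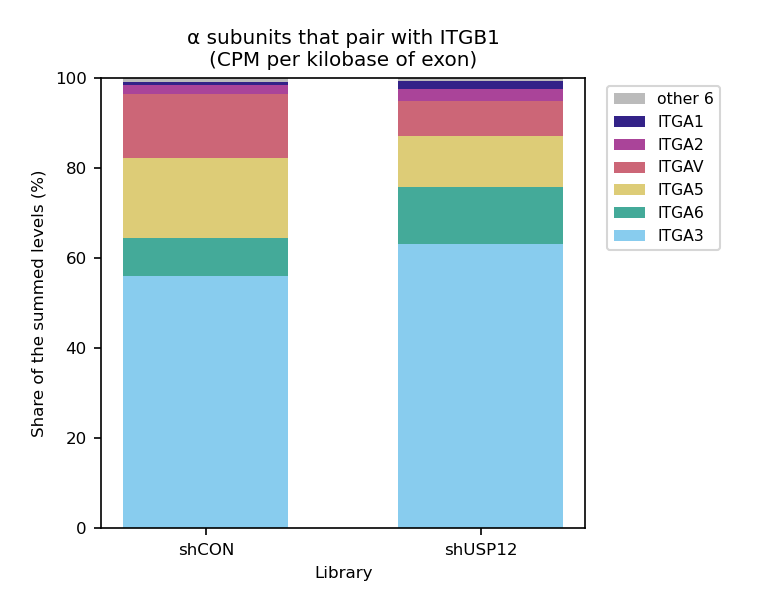
Share of each α subunit (vertical axis, percent) in the summed CPM per kb of exon of the 12 α subunits that can pair with ITGB1, in the shCON and the shUSP12 library. ITGA3, at the base of each bar, takes 56.1% in shCON and 63.1% in shUSP12, and ITGA5 with ITGAV takes less in shUSP12.

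For each receptor and trimer, the lower of the partner levels was then read as the level at which all its parts were present as transcripts. Of 24 known heterodimers, 16 had all partners averaging 1 CPM or more, and of 14 trimers, 11 did. In all ITGB1 pairs, and in the ITGA6-ITGB4 pair of the hemidesmosome, the α subunit was the lower partner in both libraries, so these pairs follow the α subunit. ITGA3-ITGB1 was the highest heterodimer on this scale, at 52.1 CPM per kb in shCON and 85.1 in shUSP12. ITGA6-ITGB1 and ITGA6-ITGB4 were at 7.77 and 17.0, and ITGA1-ITGB1 was at 0.575 and 2.41. ITGA2-ITGB1 was at 1.97 and 3.81, and ITGA7-ITGB1, the laminin receptor of muscle, was at 0.366 and 0.319.

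The RGD pairs were divided. ITGA5-ITGB1 was at 16.4 CPM per kb in shCON and 15.3 in shUSP12, ITGAV-ITGB1 at 13.2 and 10.4, and ITGAV-ITGB6 at 3.16 and 2.24. ITGAV-ITGB5 was at 11.4 and 10.4 with the lower partner changing from ITGB5 to ITGAV, but with the longest or the MANE transcript ITGB5 stayed the lower partner and the pair was higher in shUSP12. ITGAV-ITGB3, limited by ITGB3, was higher in shUSP12, at 0.202 and 0.368.

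Laminin-521, a trimer bound by ITGA3-ITGB1 and ITGA6-ITGB1, was at 35.4 CPM per kb in shCON and 31.6 in shUSP12, limited by LAMB2, and laminin-511 was at 18.9 and 20.8, limited by LAMB1. Laminin-311 and laminin-321 were limited by LAMA3 at 13.8 and 14.4. Laminin-411 and laminin-421 were at 3.77 in both libraries, limited by LAMA4. The trimers with LAMC3 were lower in shUSP12, with laminin-523 at 5.09 and 2.26 and laminin-423 at 3.77 and 2.26. The pairs of ITGA3 and ITGA6 were thus higher in shUSP12 while laminin-521 and laminin-511 had shUSP12 over shCON ratios of 0.893 and 1.10. Which of these trimers was the higher depended on the length. Per longest transcript laminin-521 was at 42.7 in shCON and 38.1 in shUSP12, and laminin-511 was above it at 52.1 and 57.3. Per MANE length laminin-521 had the same values, and laminin-511 was at 62.1 and 68.4.

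**Figure D4:**
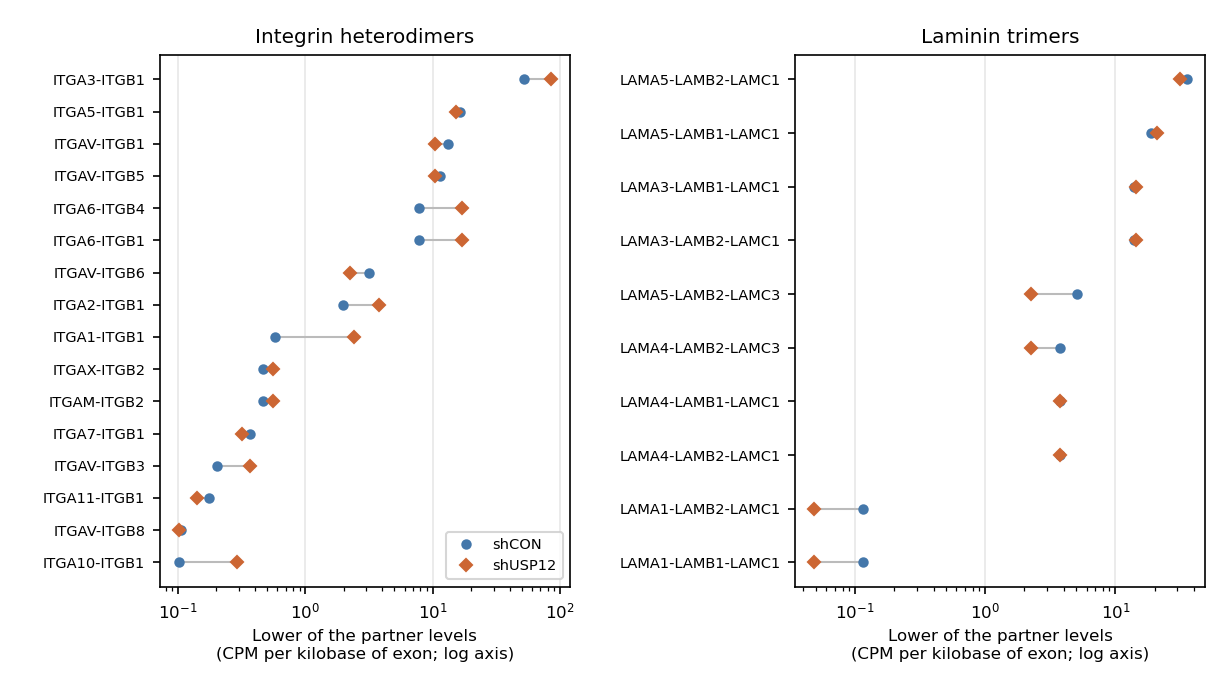
Lower of the partner levels for 16 integrin heterodimers (left) and 10 laminin trimers (right), in CPM per kb of exon on log axes. Circles stand for shCON and diamonds for shUSP12, 1 library each. ITGA3-ITGB1 leads the heterodimers at 52.1 and 85.1, and the trimers with LAMA3 lie at 13.8 and 14.4.

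The genes that work with these subunits were read from further lists. Of 31 measured adaptors and kinases of the adhesion complex, 5 had an interval above 0 and 25 below 0, with a median log2 ratio of -0.38, beside 27.1% of all rows above 0 and 29.1% below. With scaling to total counts alone 7 of the 31 lay above 0 and 20 below, beside 39.8% and 18.6% of all rows. FLNA, the actin crosslinker filamin A, had 196303 counts in shCON and 138498 in shUSP12, for a log2 ratio of -0.57. TLN1, the talin that switches integrins on, was at -0.38 and VCL, the vinculin that talin recruits, at -0.46. The lowest were LIMS2, with 307 and 126 counts and a log2 ratio of -1.34 (95% interval -1.67 to -1.05), and TNS2, a tensin, with 737 and 363 counts and -1.09 (95% interval -1.28 to -0.91). LIMS1, an adaptor like LIMS2 of the kinase ILK, was at -0.94 and TGFB1I1, a paxillin relative, at -0.96. ILK itself, with 8 and 9 counts, averaged below 1 CPM and was not among the 31. SRC, the kinase that acts beside focal adhesion kinase, had 2686 and 1493 counts, a log2 ratio of -0.92. On the higher side PTK2B, a relative of focal adhesion kinase, had 447 and 720 counts, a log2 ratio of 0.62 (95% interval 0.45 to 0.79). PTK2, focal adhesion kinase itself, had 4106 and 4117.

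Of 10 measured basement membrane partners of laminin, 7 had an interval below 0 and 1 above 0, with a median log2 ratio of -0.36, beside 29.1% of all rows below 0 and 27.1% above. With scaling to total counts alone 5 lay below 0 and 2 above, beside 18.6% and 39.8% of all rows. COL4A1 and COL4A2, the chains of the main collagen IV, a ligand of ITGA1-ITGB1, had 9038 and 12087 counts in shCON and 4523 and 6691 in shUSP12, log2 ratios of -1.07 (95% interval -1.12 to -1.02) and -0.92 (95% interval -0.97 to -0.88). COL4A3 was at -0.80, and NID1, the nidogen that links laminin to collagen IV, was at -0.64. COL18A1 was at 0.44, and AGRN, the heparan sulphate proteoglycan agrin, had 19509 and 20406 counts and a log2 ratio of -0.01. ITGA1 and the collagen IV chains thus lay on opposite sides of 0.

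Of 10 measured hemidesmosome and membrane partners, 4 had an interval above 0 and 3 below 0, beside 27.1% and 29.1% of all rows, with a median of -0.04. COL17A1, the transmembrane collagen of the hemidesmosome, had 108 and 205 counts, a log2 ratio of 0.84 (95% interval 0.51 to 1.20). PLEC, the plectin that ties ITGB4 to keratins, was at 0.07 and DST, the other plakin, at 0.23. CD151, the tetraspanin bound to laminin receptor integrins, had 5061 and 3894 counts, a log2 ratio of -0.45, opposite in sign to ITGA3 and ITGA6. Of 5 other laminin receptors, 4 had an interval below 0, among them DAG1, dystroglycan, at -0.26, and 1 above 0, SDC4, a syndecan, at 0.45.

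Ligands were divided. Of 13 measured soluble and matrix ligands of integrins, 5 had an interval above 0 and 6 below 0, beside 27.1% and 29.1% of all rows, with a median of -0.16. EDIL3, a secreted RGD protein, had 44 counts in shCON and 359 in shUSP12, for a log2 ratio of 2.91 (95% interval 2.50 to 3.44). TNC, tenascin C, had 2589 and 6863, a log2 ratio of 1.34 (95% interval 1.27 to 1.40). The fibrinogen chain FGB was at -0.94 and NPNT, nephronectin, at -0.64. FN1, fibronectin, had 14684 and 15823 counts, a log2 ratio of 0.04. CDH1, the E-cadherin bound by ITGAE-ITGB7, had 1026 and 2496 counts, a log2 ratio of 1.21 (95% interval 1.11 to 1.32), and ITGAE was lower. It was the 1 of 3 measured cell-surface ligands whose interval left out 0. Of 8 measured genes of the latent TGF-β complex, which ITGAV-ITGB6 binds, 3 had an interval above 0 and 4 below 0, beside the same shares of all rows. TGFB3 had 49 and 136 counts, a log2 ratio of 1.37 (95% interval 0.92 to 1.90), and LTBP4 was at -0.78.

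**Figure D5:**
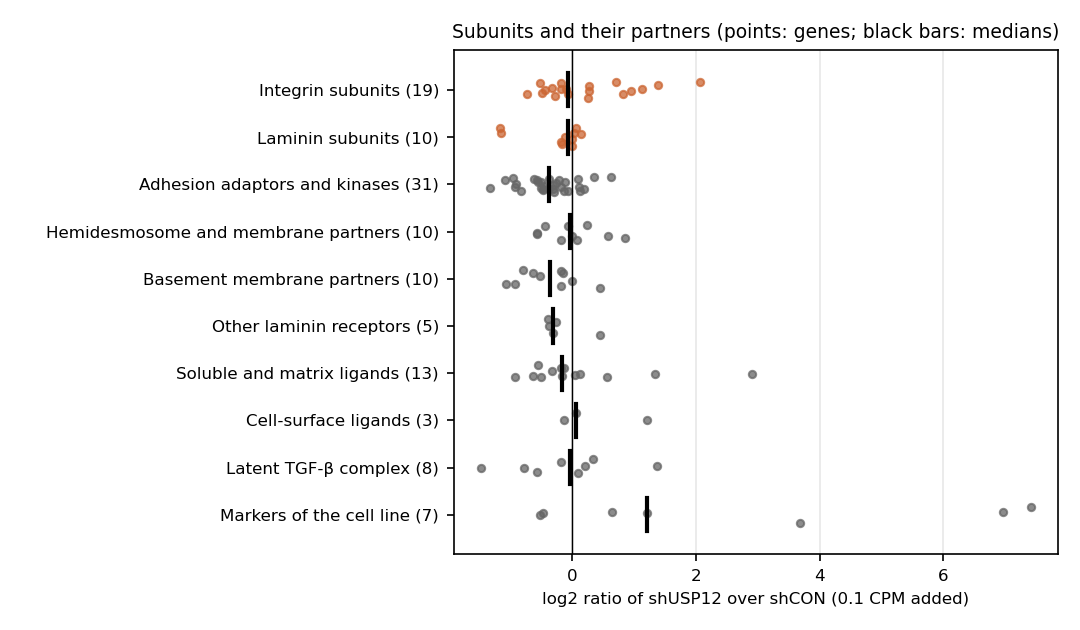
Log2 ratio of shUSP12 over shCON (horizontal axis) for the integrin and laminin subunits and for lists of genes that work with them, with the number measured in parentheses. Each point is a gene and black bars are medians, which are -0.07 for both sets of subunits, -0.38 for the adhesion adaptors and kinases and -0.36 for the basement membrane partners.

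Markers of other cells that carry such subunits had few counts, apart from 2 fibroblast markers. No endothelial marker averaged 1 CPM, and all 6 summed to 1.43 CPM in shCON and 3.28 CPM in shUSP12, the highest count being 32 for KDR, which was at 0 in shCON. The 6 fibroblast markers summed to 74.9 and 94.7 CPM, and 3 of them averaged 1 CPM or more. DCN had 481 and 597 counts and LUM 788 and 1103, while COL1A2 had 0 and 3 and PDGFRA 0 and 7. The 5 platelet markers summed to 2.24 and 3.72 CPM, with at most 30 counts each. Fewer cells of a type and less RNA per cell cannot be told apart in such bulk libraries.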

How the data were processed

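RNA from H1944 cells was sequenced from stranded mRNA libraries, 1 for shCON and 1 for shUSP12, grouped by their treatment labels. The deposited tables held raw counts per gene that the authors made without normalisation. Per the methods of the study, reads were trimmed and filtered with Seqtk, aligned to GRCh38 with Hisat2 and counted as uniquely mapped fragments with Stringtie. The submitters' processing notes name Trimmomatic, HISAT2 2.0.4 and HTSeq 0.6.0 instead, so which counter made the tables is not settled. The annotation release is not given in the sources used here. Unique mapping leaves out reads shared by similar copies of a gene.

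In both tables, lines of spilled annotation text without a count, 91 per table, were left out. Counts were scaled to CPM by the TMM method (edgeR 4.0.16, R 4.3.3; factors 0.955 for shCON, 1.05 for shUSP12), and rows averaging 1 CPM or more entered the tallies. Python 3.11.15 with NumPy 2.4.6, pandas 2.3.3, SciPy 1.17.1 and Matplotlib 3.10.9 did the rest. Gene lengths were unions of exons in GENCODE release 44. All 37 members matched it, and 25 matched the RefSeq promoter table. CCN1 and CCN2 were matched by gene identifier. The ratio step was tested on simulated data. With 1 library per group no p-value was computed.

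The values of 1 member and of its trimer are not reported here. The members and gene lists were chosen with earlier results of these data known. Named genes were all other members, USP12, some of the cell type markers on lists written down with the others and, of each other list, up to 4 genes on each side averaging 5 CPM or more and past a 1.5-fold ratio. Others named (ITGA2B, FLNA, TLN1, VCL, ILK, SRC, PTK2, COL18A1, AGRN, PLEC, DST, CD151, DAG1, SDC4, FN1, PELO and HASPIN) were chosen after their values were seen. Alternatives were other scalings, including the size factors of DESeq2 1.42.0, other pseudocounts, filters, fold thresholds and gene lengths.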

Additional observations from a re-analysis of the deposited data

Results flagged for a closer look

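LAMC1-AS1, an antisense RNA in the LAMC1 locus that the members' rule leaves out, had 21 counts in shUSP12 and 5 in the control library. It entered no comparison of the subunits and stood above its level in shCON. It shares 0 exonic bases with LAMC1 in GENCODE release 44 and lies on the opposite strand. Whether the counting used the strand is not given in the sources used here. Its mean of 0.717 CPM was below the filter of 1 CPM. The row was flagged because the interval of its ratio lay above 0. That 95% interval, from 1.47-fold to 13.6-fold, is thus no separate support.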

How the results depend on the processing

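No paired analysis was possible because only 1 library stood for each condition, and for the same reason no library could be left out. Scaling to total counts alone moved the median log2 ratio of all rows by 0.13 and the share of higher among changed rows from 68.3% to 79.6%. It moved the integrin median from -0.066 to 0.059 and the laminin median from -0.068 to 0.064, and reversed ITGA5 to 0.026 and LAMC1 to 0.012. Of the 29 subunits, 12 then had an interval above 0 and 7 below, against 9 and 12 with TMM, and 11 and 11 with DESeq2 factors. Of all rows, 39.8% lay above 0 and 18.6% below with total counts. These shares were 27.1% and 29.1% with TMM, and 29.0% and 27.1% with DESeq2 factors. A mean of at least 5 CPM gave an integrin median of 0.072 and 1 member at least 2-fold lower. That was 1 of 21 members, beside 168 of 11130 rows. The mean in place of the median was 0.23 for integrins and -0.26 for laminins. The 3 members at least 2-fold higher became 6 without a filter, 6 at 1.5-fold and 1 at 4-fold. Of all rows, 3993 of 59125 were higher without a filter, 1744 of 14612 at 1.5-fold and 416 of 14612 at 4-fold. The 2 lower became 1 with a pseudocount of 1 CPM, 5 without a filter and 0 at 4-fold. Among all rows, 214 of 14612 were lower with that pseudocount, 2447 of 59125 without a filter and 38 of 14612 at 4-fold. With the longest or the MANE Select transcript as length, the latter chosen after the data were seen, the lower partner of ITGAV-ITGB5 turned from -0.13 to 0.27. That of ITGAM-ITGB2 turned to -0.084 and -0.53, and that of ITGAX-ITGB2 to -0.23 with MANE. Of 54 values of pairs and trimers, 47 stayed close, 5 reversed as given here and 2 moved, both for LAMA4-LAMB2-LAMC3 at -1.17. The cause is the length itself, which decides which partner is lower. Of 116 values of single members, 101 stayed within their interval, 13 moved beyond it and 2 reversed. Members at least 2-fold higher numbered 4 with total counts, 2 with a pseudocount of 1 CPM and 2 at 5 CPM, and members lower numbered 3 at 1.5-fold. The same tallies over all rows were 1137 of 14627, 722 of 14612 and 361 of 11130 higher, and 1331 of 14612 lower. Of 38 summary values, 26 stayed within 1.5 times the main count, 0.1 of the main median or the interval of USP12, and 12 went beyond, all given here. USP12 ranged from -1.77 to -1.63.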
